A study of Mus musculus with 10 samples.

Results

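In all, 10 transcription factor genes of paraxial and early mesoderm were followed through peak lists of 4 histone marks in cells with and without functional SCL. The genes were *Tbx6*, *Msgn1*, *Mesp1*, *Mesp2*, *Tcf15*, *Meox1*, *Pax3*, *Uncx*, *Foxc1* and *Foxc2*. They were chosen by name, as 10 of 22359 protein-coding genes annotated in GENCODE M1 on mouse build mm9. A gene had a peak when a listed peak came within 2500 bp of any of its protein-coding transcription start sites (TSSs) or overlapped its body. All 10 genes were found in the annotation, and 8 of them had a peak of at least 1 mark.

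The cells expressed mCherry and were sorted on day 4 of embryoid body (EB) culture, in which mouse embryonic stem (ES) cells differentiate in clumps. Their strain was given as C57Bl/6 X Sv129. The control line, *Scl:mCherry* (WT), came from J1 ES cells and carries mCherry at 1 *Scl* allele with SCL functional. The *Scl* d/d:mCherry line (Delta) was engineered from it and lacks the basic helix-loop-helix (bHLH) domain of SCL on both alleles. SCL, also called TAL1, is a bHLH transcription factor required for blood specification, and each line came from a single sorted cell, so line and genotype cannot be told apart. Cells were mixed with *Drosophila* S2 cells, and chromatin was precipitated with antibodies against H2AK119ub, H3K27me3, H3K27ac and H3K4me3. Each mark had a single library in each genotype, so the values carry no replicate check and no p-value between genotypes. Fold enrichment and q are values that the authors' peak caller gave each peak. For H2AK119ub the median fold enrichment was 3.62 in the WT list and 4.00 in the Delta list, and the lowest 2.73 and 3.13. Fold enrichments of this mark therefore do not compare directly between genotypes. Peak lists do not hold read depth, and read totals were not used here. A region without a peak may hold signal below the calling threshold, which was a q-value of 0.05.

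Polycomb group proteins keep developmental genes silent. Polycomb repressive complex 1 places H2AK119ub, Polycomb repressive complex 2 places H3K27me3, and both act mostly at CpG-rich promoters. H3K4me3 marks promoters that are active or poised and H3K27ac marks active promoters and enhancers. Promoters that carry H3K4me3 together with H3K27me3 are termed bivalent, a state common at developmental regulators in ES cells. In the embryo, *Tbx6* and *Msgn1* act in presomitic mesoderm, *Mesp1* and *Mesp2* in nascent mesoderm and at the forming somite, and the remaining genes in somites and their derivatives.

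The cells were checked against marker genes by H3K27ac. In WT, 4 of 7 blood and endothelial markers had an H3K27ac peak (*Tal1*, *Kdr*, *Lmo2* and *Gata2*), and in Delta none of the 7 did. *Pdgfra*, a marker of other mesoderm, had none in either genotype, nor did 3 pluripotency, 3 endodermal and the 2 neural markers found in the annotation. Among 10 cardiac genes, H3K27ac was present at 0 in WT and 3 in Delta, where 20.8% and 23.6% of all genes had it. A missing H3K27ac peak at *Pdgfra* does not show that such cells were absent. At a later time of culture, the study found PDGFRα protein on many more mCherry-positive Delta cells than control cells. The 2 lines thus differed in H3K27ac at blood genes and at some cardiac genes. The part of such differences in the results that follow was not tested. In a bulk population, a mark on fewer cells and less of a mark per cell cannot be told apart.

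The start sites of these genes differed widely in CpG content, which the choice of genes did not use. The 250 bp before the annotated TSS are shown for 6 of them, with each CpG in capitals. *Tbx6* and *Msgn1* are shown because they had no H3K27me3 peak, *Mesp1* and *Mesp2* because their H3K27me3 cover near the start differed most between genotypes, and *Tcf15* and *Foxc1* because they had the most CpGs. All are read 5′ to 3′ on the strand of the gene from the mm9 reference: *Tbx6* from chr7:133924747-133924996 (plus strand), *Msgn1* from chr12:11215755-11216004 (minus), *Mesp1* from chr7:86938675-86938924 (minus), *Mesp2* from chr7:86955363-86955612 (plus), *Tcf15* from chr2:151969047-151969296 (plus) and *Foxc1* from chr13:31898265-31898514 (plus).
Tbx6: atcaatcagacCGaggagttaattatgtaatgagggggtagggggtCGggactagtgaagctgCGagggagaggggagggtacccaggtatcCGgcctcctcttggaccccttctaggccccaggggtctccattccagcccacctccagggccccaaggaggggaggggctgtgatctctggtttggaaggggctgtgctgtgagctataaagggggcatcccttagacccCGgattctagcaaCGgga
Msgn1: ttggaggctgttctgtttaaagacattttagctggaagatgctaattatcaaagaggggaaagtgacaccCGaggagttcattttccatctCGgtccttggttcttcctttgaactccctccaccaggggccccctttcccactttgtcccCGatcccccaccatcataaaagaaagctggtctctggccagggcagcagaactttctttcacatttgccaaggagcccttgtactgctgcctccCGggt
Mesp1: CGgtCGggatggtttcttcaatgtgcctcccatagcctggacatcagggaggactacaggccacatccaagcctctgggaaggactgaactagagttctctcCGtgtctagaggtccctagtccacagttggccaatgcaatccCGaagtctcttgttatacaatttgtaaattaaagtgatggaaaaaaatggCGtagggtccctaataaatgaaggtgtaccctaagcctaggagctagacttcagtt
Mesp2: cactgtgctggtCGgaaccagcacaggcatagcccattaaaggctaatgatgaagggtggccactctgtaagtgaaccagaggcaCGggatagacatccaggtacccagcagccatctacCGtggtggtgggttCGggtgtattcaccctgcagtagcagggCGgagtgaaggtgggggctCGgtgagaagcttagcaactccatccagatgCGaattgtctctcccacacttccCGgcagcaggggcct
Tcf15: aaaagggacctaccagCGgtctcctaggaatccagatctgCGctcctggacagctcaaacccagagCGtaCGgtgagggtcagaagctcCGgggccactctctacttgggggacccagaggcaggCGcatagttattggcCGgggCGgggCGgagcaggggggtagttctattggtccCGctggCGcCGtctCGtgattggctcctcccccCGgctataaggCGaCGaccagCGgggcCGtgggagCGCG
Foxc1: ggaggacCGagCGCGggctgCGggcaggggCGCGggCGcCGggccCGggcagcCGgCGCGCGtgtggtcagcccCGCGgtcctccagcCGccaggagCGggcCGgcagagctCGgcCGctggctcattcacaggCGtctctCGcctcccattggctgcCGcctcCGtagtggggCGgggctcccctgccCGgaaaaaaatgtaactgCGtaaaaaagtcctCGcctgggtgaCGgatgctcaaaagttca
These stretches held 6 CpGs for *Tbx6*, 4 for *Msgn1*, 5 for *Mesp1*, 8 for *Mesp2*, 20 for *Tcf15* and 29 for *Foxc1*. RefSeq promoters could be placed for 6 of the 10 genes. The RefSeq start was the same base for *Tbx6*, *Msgn1*, *Mesp2* and *Foxc1*, and lay 198 bp inside the GENCODE model for *Mesp1* and 404 bp inside it for *Uncx*.

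Polycomb marks were found at the same 7 genes in both genotypes. H3K27me3 peaks were present at *Mesp1*, *Mesp2*, *Tcf15*, *Pax3*, *Uncx*, *Foxc1* and *Foxc2* in WT and in Delta, and H2AK119ub peaks at the same 7 genes. For H3K27me3, 36.7% of all protein-coding genes had a peak in WT and 34.6% in Delta. For H2AK119ub, the shares of all genes were 10.8% and 5.70%. *Tbx6*, *Msgn1* and *Meox1* had neither mark in either genotype.

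H3K4me3 peaks were present at 6 of the 10 genes, *Tbx6*, *Mesp1*, *Tcf15*, *Pax3*, *Foxc1* and *Foxc2*, in each genotype, where 61.9% of all genes had one in WT and 61.4% in Delta. The share of the 10 genes was thus near that of all genes. H3K27ac peaks were present at 0 of the 10 genes in WT and 0 in Delta, where 20.8% and 23.6% of all genes had one. No mark was called at any of the 10 genes in a single genotype: 0 had a peak in WT alone and 0 in Delta alone. Over all genes, 5.91% had H2AK119ub in WT alone and 0.832% in Delta alone, 7.08% and 4.99% had H3K27me3, 3.84% and 6.61% had H3K27ac, and 1.21% and 0.716% had H3K4me3. These shares also count genes with no peak of the mark in either list. Of 2411 genes with H2AK119ub in WT, 1322 had it in WT alone. Of 1275 with it in Delta, 186 had it in Delta alone. For H3K27me3 these counts were 1584 of 8201 and 1116 of 7733. At the 7 genes here with each mark, both counts were 0. Whether this differs from all genes was not tested, and the counts changed under stricter settings given below.

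**Figure D1:**
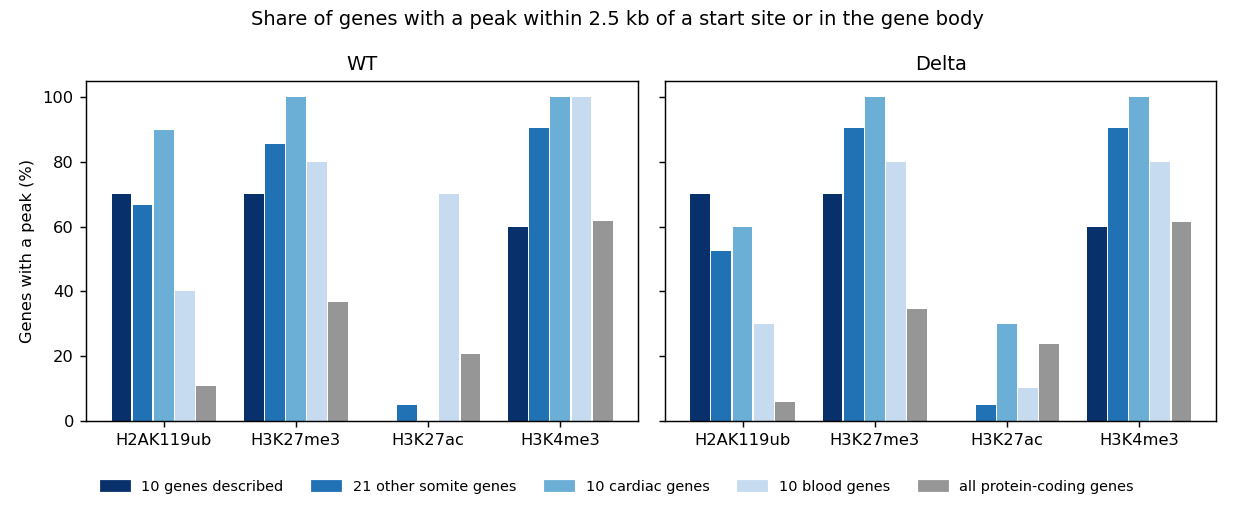
Share of genes with a peak (%), by mark, in WT (left) and Delta (right), for the 10 genes described, 21 other paraxial and somite genes, 10 cardiac genes, 10 blood genes and all protein-coding genes. Bars for the 10 genes have the same height in both panels for every mark, at 7 of 10 genes for both Polycomb marks, 6 of 10 for H3K4me3 and 0 for H3K27ac.

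In each genotype 5 genes were bivalent: *Mesp1*, *Tcf15*, *Pax3*, *Foxc1* and *Foxc2* had both H3K4me3 and H3K27me3 within 2500 bp of a TSS. Over all genes the share was 32.4% in WT and 30.1% in Delta. All 5 also had H2AK119ub. At a −log10 q of 3 or more, *Mesp1* kept H3K27me3 but not H3K4me3 in WT, and H3K4me3 but not H3K27me3 in Delta. It was then bivalent in neither genotype. *Mesp2* and *Uncx* had both Polycomb marks and no H3K4me3 peak, *Tbx6* had H3K4me3 and no Polycomb mark, and *Msgn1* and *Meox1* had no peak of any of the 4 marks. Whether both marks of a bivalent gene lay on the same chromosomes of the same cells was not tested.

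**Figure D2:**
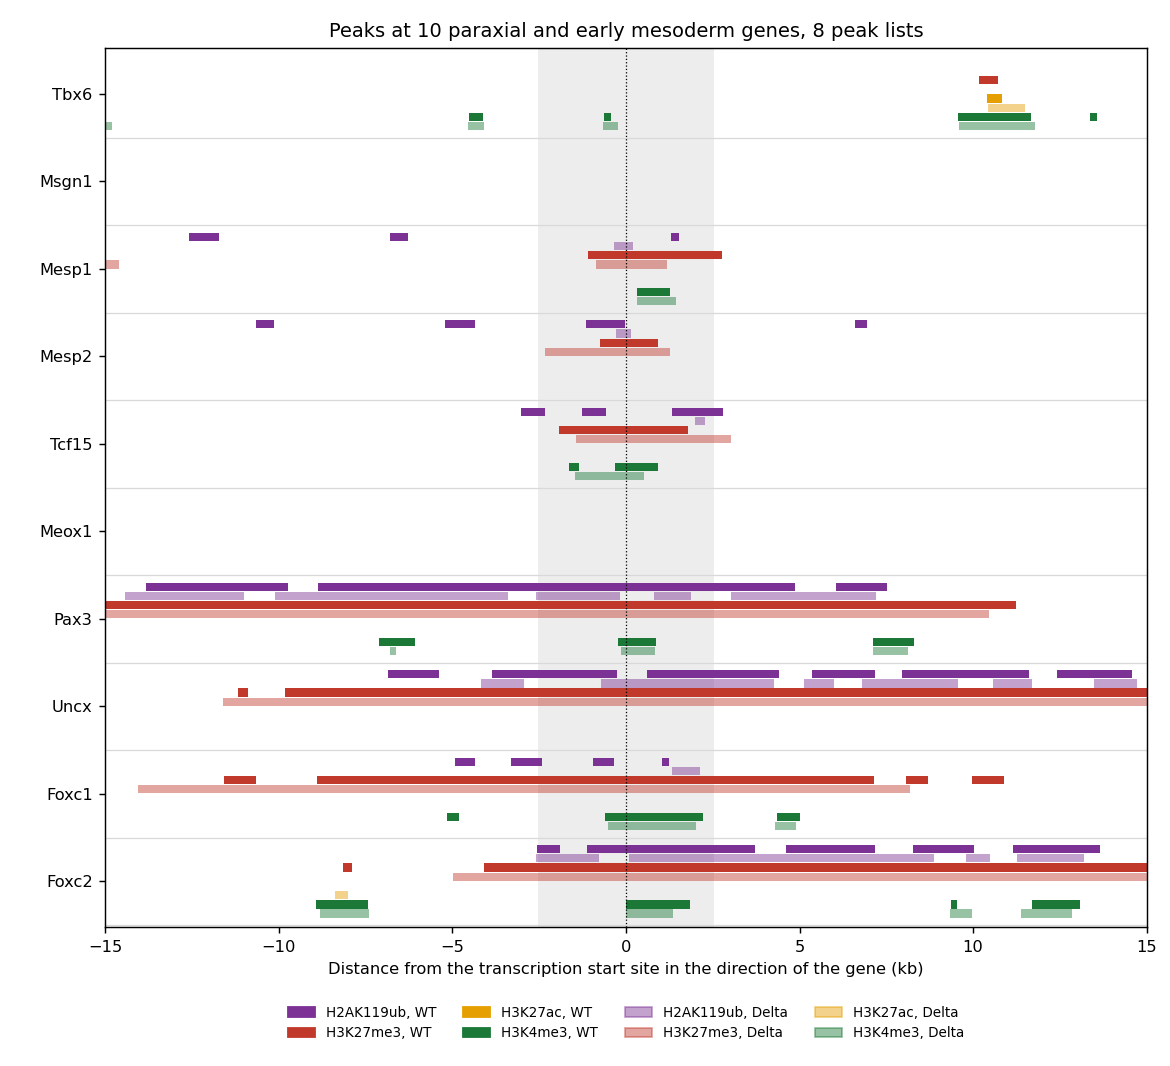
Peaks of the 8 lists within 15 kb of the TSS of each gene, drawn in the direction of the gene, with the distance from the TSS in kb on the x axis. Colours mark the 4 marks, full for WT and pale for Delta, and the grey band spans 2500 bp on each side of the first TSS. Broad H3K27me3 runs over *Pax3*, *Uncx*, *Foxc1* and *Foxc2* in both genotypes, while *Msgn1* and *Meox1* have no peak in view, and the peaks between *Mesp1* and *Mesp2* are drawn in both of their rows.

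*Tbx6* encodes a T-box factor that directs cells to paraxial mesoderm and away from a neural fate. At *Tbx6* (ENSMUSG00000030699.10, chr7:133924997-133929074, plus strand) the only mark was H3K4me3, in a short peak upstream of the gene that did not reach its start. In WT this peak was 191 bp long, from -623 to -433 bp of the TSS, with a fold enrichment of 3.53 and a q of 0.00164. In Delta it was 414 bp long, from -656 to -243 bp, with a fold enrichment of 4.08 and a q of 0.000381, and it held the whole WT peak. The Delta peak was thus longer and its fold enrichment higher, but both were short for their lists: 1.87% of WT H3K4me3 peaks were shorter than the WT peak, and 9.38% of Delta peaks were shorter than the Delta peak. Fold enrichment was lower in 9.78% of the WT list and in 16.3% of the Delta list. The nearest H3K27ac peak lay 10412 bp from the *Tbx6* TSS in WT and 10432 bp in Delta, with *Ppp4c* the closest start to both. The WT list also had an H3K27me3 peak 10165 bp away near the *Ppp4c* start, where the nearest in Delta was 17023 bp away near *Aldoa*. None of these came within 2500 bp of *Tbx6*.

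*Msgn1* encodes a bHLH factor of presomitic mesoderm. *Msgn1* (ENSMUSG00000047002.1, chr12:11215188-11215754, minus strand) is annotated as a single exon of 567 bp, nearly all of it coding. It was the most isolated of the 10 genes from any mark: no peak of any list lay within 50000 bp of its TSS. The nearest H3K27me3 peak was 56758 bp away in WT and 51769 bp in Delta, with *Kcns3* the closest start to both. The nearest H3K4me3 peak was 55614 bp away in WT and 55387 bp in Delta, at *Gen1*, and the nearest H3K27ac peaks lay at 56683 bp and 57270 bp, near *Gen1* and *Smc6*. The nearest H2AK119ub peak was 1626391 bp away in WT and 1629752 bp in Delta, near *Osr1*. The 4 marks therefore gave no value at *Msgn1* on which the genotypes could be compared.

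*Mesp1* encodes a bHLH factor switched on in the earliest mesoderm, from which heart and vessel progenitors arise, and *Mesp2* its close relative, which sets the boundary and polarity of each somite. They are neighbours, with start sites 16939 bp apart and pointing away from each other, *Mesp1* on the minus strand (ENSMUSG00000030544.5, chr7:86937127-86938674) and *Mesp2* on the plus strand (ENSMUSG00000030543.8, chr7:86955613-86958317). Their H3K27me3 peaks differed between genotypes in opposite directions. At *Mesp1* the peak was 3856 bp long in WT, from -1097 to 2758 bp of the TSS, with a fold enrichment of 4.63 and a q of 2.54e-07. In Delta it was 2062 bp long, from -866 to 1195 bp, with a fold enrichment of 3.33 and a q of 0.00230. The whole Delta peak lay within the WT peak. At *Mesp2* the peak was 1667 bp long in WT, from -754 to 912 bp, with a fold enrichment of 3.48 and a q of 0.000188. In Delta it was 3603 bp long, from -2345 to 1257 bp, with a fold enrichment of 4.66 and a q of 2.30e-06, and it held the whole WT peak.

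Within 2500 bp of the TSS, H3K27me3 thus covered 3598 bp at *Mesp1* in WT and 2062 bp in Delta, and 1667 bp at *Mesp2* in WT and 3603 bp in Delta. Over the 100 kb around each start the sums were close, at 5523 bp in WT and 5665 bp in Delta around *Mesp1*, and 5523 bp and 5948 bp around *Mesp2*. The 2 windows share most of their sequence and are not independent. When a −log10 q of 3 or more was required, the Delta peak at *Mesp1* was lost and that gene had H3K27me3 in WT alone, as did 4.94% of all genes.

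H2AK119ub also differed in position at this pair. The WT peak at *Mesp1* was 224 bp long, from 1296 to 1519 bp, in the annotated untranslated part of the last exon. Its fold enrichment of 4.88 was higher than that of 99.9% of the WT list, with a q of 0.000209. The Delta peak was 567 bp long, from -358 to 208 bp, over the start site, with a fold enrichment of 4.23 and a q of 0.00228. These peaks did not overlap and were separated by 1087 bp, so that *Mesp1* had H2AK119ub called in both genotypes but at different positions. Over the whole lists, 31.5% of WT H2AK119ub peaks overlapped a Delta peak. At a −log10 q of 3 or more the Delta peak at *Mesp1* was lost and the WT peak remained. At *Mesp2* the WT peak was 1110 bp long and ended just upstream of the start, from -1143 to -34 bp, with a fold enrichment of 3.16. The Delta peak was 434 bp long and crossed the start, from -299 to 134 bp, with a fold enrichment of 3.78, and the peaks shared 266 bp. Their q values were 0.0278 in WT and 0.0241 in Delta. Between the genes and around them the WT list had further H2AK119ub peaks, for a sum of 3368 bp over the 100 kb around either start, against 1001 bp in Delta.

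H3K4me3 was present at *Mesp1* only on the gene side of the start, from 306 to 1282 bp in WT and from 320 to 1442 bp in Delta, with fold enrichments of 3.0 and 3.77. The RefSeq start, at 198 bp, lies closer to these peaks than the GENCODE start. Only 1.28% of WT H3K4me3 peaks and 10.6% of Delta peaks had a lower fold enrichment. *Mesp2* had no H3K4me3 peak within 2500 bp, and the nearest was that of *Mesp1*, 17245 bp away in WT and 17259 bp in Delta. The nearest H3K27ac peak lay 133180 bp from *Mesp1* in WT and 233716 bp in Delta.

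*Tcf15*, also called paraxis, encodes a bHLH factor needed for somites to become epithelial. At *Tcf15* (ENSMUSG00000068079.5, chr2:151969297-151974833, plus strand) all marks but H3K27ac were present. H3K27me3 ran from -1923 to 1784 bp in WT, over 3708 bp, and from -1446 to 3037 bp in Delta, over 4484 bp. Fold enrichment was 6.14 in WT and 8.19 in Delta, higher than in 86.2% and 94.2% of peaks of the same list. H3K4me3 was called as 2 peaks in WT, of 283 bp from -1633 to -1351 bp and of 1253 bp from -322 to 930 bp, and as a single peak of 1983 bp in Delta, from -1469 to 513 bp. Bases within 2500 bp of the start that had H3K4me3 were 1536 in WT and 1983 in Delta, and with peaks up to 3000 bp apart joined this order turned over. H2AK119ub was called as 3 peaks in WT, of 708 bp, 684 bp and 1463 bp, with 2 of them upstream of the gene and 1 in the intron. In Delta it was called as 1 peak of 297 bp, from 1991 to 2287 bp, within the intronic WT peak. The H2AK119ub cover within 2500 bp of the start was 2031 bp in WT and 297 bp in Delta.

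*Meox1* encodes a homeobox factor of the somite that acts in the sclerotome. *Meox1* (ENSMUSG00000001493.9, chr11:101738824-101755688, minus strand) had no peak of any mark within 2500 bp of its start or over its body. The nearest peaks were of H3K27me3, upstream of the gene at 22038 bp in WT, with a length of 2418 bp and a fold enrichment of 3.52, and at 23040 bp in Delta, with a length of 1664 bp and a fold enrichment of 4.17. *Meox1* was itself the closest annotated start to both. Over the 100 kb around its start, H3K27me3 covered 3700 bp in WT and 5466 bp in Delta. H3K4me3 came no nearer than 42758 bp in WT and 68957 bp in Delta.

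*Pax3*, a paired-box gene of the dermomyotome and neural crest, and *Uncx*, a homeobox gene of the caudal sclerotome, had the longest Polycomb domains of the 10. At *Pax3* (ENSMUSG00000004872.9, chr1:78097842-78193709, minus strand) the H3K27me3 peak over the start was 35991 bp long in WT, with a fold enrichment of 11.1, and 35154 bp in Delta, with a fold enrichment of 10.9. The whole Delta peak lay within the WT peak, and each was longer than 99.8% of its list. At *Uncx* (ENSMUSG00000029546.10, chr5:140019448-140079180, plus strand) the peak was 32111 bp long in WT and 31695 bp in Delta, with fold enrichments of 9.86 and 9.97, and each was longer than 99.7% of its list. The annotated body of *Uncx* spans 59733 bp. Farther into it, a second H3K27me3 domain was 7389 bp long in WT and 7477 bp in Delta, with fold enrichments of 4.74 and 5.50.

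The outline of H2AK119ub inside these domains differed between lists. At *Pax3* the WT list had a single peak of 13765 bp, from -8880 to 4884 bp, over the start, longer than 99.9% of that list. The Delta list had 4 peaks over much of the same stretch, of 6728 bp from -10121 to -3394 bp, 2415 bp from -2584 to -170 bp, 1089 bp from 796 to 1884 bp and 4173 bp from 3018 to 7190 bp, with the start itself in a gap. Over the 100 kb around the start H2AK119ub covered 23638 bp in WT and 25365 bp in Delta, so the wider sum was higher in Delta. The Delta peak that ended at -170 bp had a fold enrichment of 4.55, higher than in 95.1% of its list. The WT peak had 3.82, higher than in 76.5% of its list. At *Uncx* the order was the opposite, since the Delta list had a peak of 4981 bp over the start, from -709 to 4271 bp, while the WT peaks ended at -269 bp and began again at 598 bp. Fold enrichments were 3.85 for the Delta peak and 3.75 and 4.04 for the WT peaks. The Delta value was higher than in 30.7% of its list, and the WT values than in 68.9% and 91.8% of theirs. A gap in broad peaks is sensitive to the calling threshold, and with peaks up to 3000 bp apart joined, cover within 2500 bp of the start was equal in both genotypes at *Pax3* and at *Uncx*.

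*Pax3* had a compact H3K4me3 peak over its start, of 1113 bp in WT and 992 bp in Delta, with fold enrichments of 4.06 and 4.77. A second one in an intron, from 7118 to 8287 bp in WT and from 7123 to 8138 bp in Delta, had fold enrichments of 5.77 and 4.80. The WT list alone had a further intronic peak of 294 bp, from 56221 to 56514 bp, with a q of 0.00402. The nearest Delta H3K4me3 peak to it was 48082 bp away. *Uncx* had none, the nearest being 59041 bp away in WT and 58583 bp in Delta at *Zfand2a*. *Pax3* thus carried H3K4me3 inside a domain of H3K27me3, and *Uncx*, with a domain of like length, did not.

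*Foxc1* and *Foxc2* encode related forkhead factors with shared roles in somites, kidney precursors and vessels. At *Foxc1* (ENSMUSG00000050295.2, chr13:31898515-31902504, plus strand) the H3K27me3 peak was 16040 bp long in WT, from -8905 to 7134 bp, and 22220 bp in Delta, from -14046 to 8173 bp. Fold enrichments were 9.41 and 9.77, and 98.3% of the WT list and 99.2% of the Delta list were shorter. The Delta peak spanned 2 intervals that the WT list left between smaller peaks, at -10657 to -8905 bp and at 7134 to 8078 bp, and the sum over 100 kb was 18540 bp in WT and 22220 bp in Delta. It also took in the start of *Gm11379*, a noncoding transcript at -8936 bp, just outside the main WT peak. H3K4me3 covered the *Foxc1* start in both lists, over 2811 bp in WT and 2520 bp in Delta, with fold enrichments of 5.65 and 5.01.

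H2AK119ub at *Foxc1* was called as 3 short peaks in WT, of 893 bp, 625 bp and 193 bp, and as 1 peak of 819 bp in Delta. None of the WT peaks overlapped the Delta peak, from which the nearest was separated by 91 bp. That WT peak and the Delta peak both lay in the coding exon, from 1043 to 1235 bp and from 1327 to 2145 bp. Bases with H2AK119ub within 2500 bp of the start were 911 in WT and 819 in Delta, with 0 in common. *Foxc1* and *Mesp1* were the 2 genes of 7 at which no base near the start was shared between the H2AK119ub lists. Over the whole lists, 31.5% of WT H2AK119ub peaks overlapped a Delta peak, and 67.2% of Delta peaks overlapped a WT peak. The share of all genes with no shared base was not counted, so this is no result particular to these genes.

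At *Foxc2* (ENSMUSG00000046714.6, chr8:123640071-123642792, plus strand) the H3K27me3 peak was 20670 bp long in WT and 22022 bp in Delta, with the WT peak inside the Delta peak. Fold enrichments were 10.6 and 12.6, and the WT value was higher than that of 99.8% of its list. Both peaks also held the start of *Foxl1*, another forkhead gene, 11769 bp downstream, which GENCODE M1 annotates as a pseudogene and which is therefore not among the protein-coding genes counted here. H3K4me3 and H2AK119ub peaks were again listed there in both genotypes, H3K4me3 from 11697 to 13071 bp of the *Foxc2* start in WT and from 11380 to 12857 bp in Delta. H2AK119ub covered the *Foxc2* start in WT, in a peak of 4841 bp from -1128 to 3712 bp. In Delta it was called as a peak of 1822 bp that ended at -764 bp and one of 8811 bp that began at 77 bp and ran to 8887 bp, longer than 99.8% of its list. H3K4me3 began within 11 bp of the start in both lists and ran over 1831 bp in WT and 1356 bp in Delta, with fold enrichments of 5.21 and 5.28. The closest H3K27ac peak of any of the 10 genes was in Delta at *Foxc2*, 7996 bp upstream and 123 bp from the start of *Mthfsd*, where the nearest to *Foxc2* in WT lay 218401 bp away.

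*Pax3* and *Foxc2* are on chromosomes 1 and 8. The local background implied by a peak's deposited fold enrichment together with its p-value was 1.35 to 1.62 times as high on these chromosomes as on the other autosomes, over 16 values in all 8 lists. It was raised in both genotypes, and its part in the peaks of these genes was not tested.

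Across the 10 genes, covered lengths near the start were then compared between genotypes for each mark. For H2AK119ub, 6 of the 7 genes had more bases covered in WT, by 61 to 1877 bp, and *Mesp1* had more in Delta, by 343 bp. With peaks up to 3000 bp apart joined, 3 genes had more in WT, against 76.0% of all such genes, since *Pax3*, *Uncx* and *Foxc2* were then equal. At a −log10 q of 3 or more 1 gene did, against 65.2%, and with 5000 bp on each side *Foxc2* had 864 bp more in Delta. Over the 2253 genes with H2AK119ub near a start in either list, 77.2% had more in WT and 22.7% in Delta, so the main split of the 7 genes was near that of all genes. The WT list was also longer, with 4922 peaks against 2388. The median difference, Delta minus WT, was -676 bp over the 7 genes and -484 bp over all such genes. Of the bases covered in either genotype, a median of 20.8% was covered in both at the 7 genes, against 30.6% over the 925 genes with the mark near a start in both lists.

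For H3K27me3, the window was fully covered in both genotypes at *Pax3*, *Uncx*, *Foxc1* and *Foxc2*. *Mesp1* had more in WT, and *Mesp2* and *Tcf15* had more in Delta, the latter by 239 bp. Over all genes with the mark near a start, 49.7% had more in WT and 43.5% in Delta. For H3K4me3, *Pax3*, *Foxc1* and *Foxc2* had more bases covered in WT, by 121 to 475 bp, and *Tbx6*, *Mesp1* and *Tcf15* had more in Delta, by 146 to 447 bp. Over all genes these shares were 66.8% and 33.1%. Of these 6 genes, the 3 with more H3K4me3 in WT were those with long H3K27me3 domains, a split seen after the values were known and given as a description. It did not hold with peaks up to 3000 bp apart joined. Then 4 genes had more H3K4me3 in WT, *Tcf15* among them (Delta minus WT, -581 bp).

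**Figure D3:**
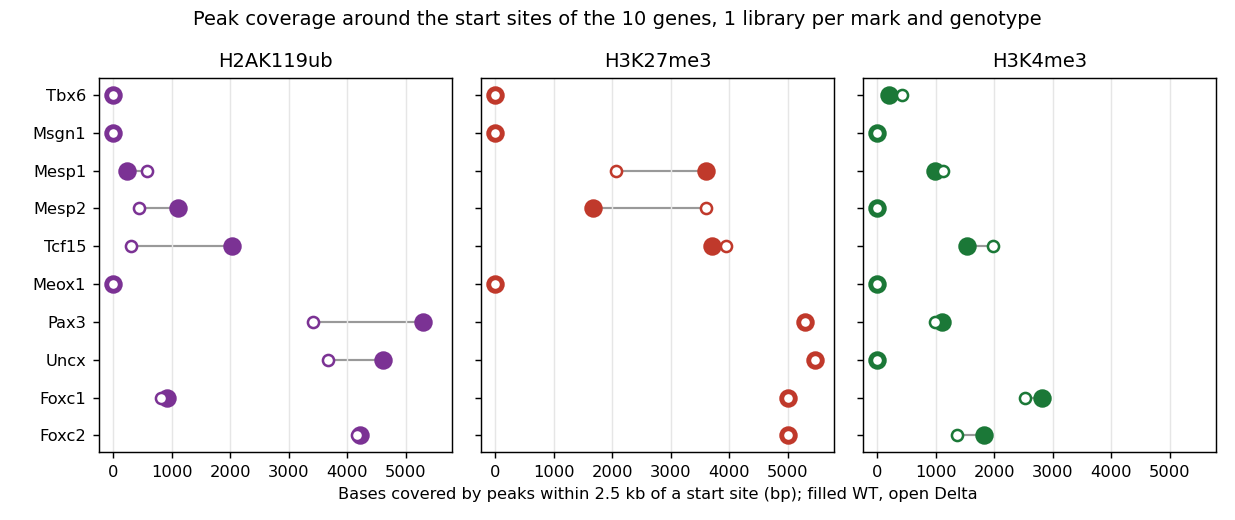
Bases covered by peaks within 2500 bp of a start site of each gene (x axis, bp) for H2AK119ub, H3K27me3 and H3K4me3, with filled points for WT and open points for Delta, 1 library each. The points coincide for H3K27me3 at the 4 genes with long domains, *Mesp1* and *Mesp2* move in opposite directions for H3K27me3, and *Tcf15* and *Pax3* have the widest gaps for H2AK119ub.

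Peaks of the 10 genes overlapped each other between lists as follows. For H3K27me3, 13 of 14 WT peaks overlapped a Delta peak and 13 of 13 Delta peaks overlapped a WT peak, where 73.5% and 75.3% of all peaks in the lists did. For H3K4me3, these counts were 8 of 9 and 7 of 7, against 92.1% and 96.0%. For H2AK119ub they were 11 of 18 and 12 of 15, against 31.5% and 67.2%. Peaks of 1 gene are not independent, and long peaks overlap more readily than short ones. The summed length of peaks at the 10 genes was 42188 bp in WT and 31729 bp in Delta for H2AK119ub, 130445 bp and 140236 bp for H3K27me3, and 9923 bp and 9404 bp for H3K4me3. The lower H2AK119ub sum in Delta rested mostly on *Pax3*, at 15763 bp in WT against 7677 bp in Delta, and without *Pax3* the sums were 26425 bp and 24052 bp. The gap at *Pax3* came partly from the counting rule. The WT peak of 13765 bp reached the start and counted at full length. The Delta peak of 6728 bp, from -10121 to -3394 bp, was left out, as were peaks farther upstream in both lists. All H2AK119ub peaks in the 100 kb around its start summed to more in Delta, at 25365 bp against 23638 bp for WT. The whole H2AK119ub lists covered 5257528 bp in WT and 2840960 bp in Delta.

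Among the 10 genes, those without H3K27me3 had the fewest CpGs, while domain length did not rise in order with CpG count among the rest. The 1001 bp centred on the start held 23 CpGs at *Msgn1*, 24 at *Meox1* and 29 at *Tbx6*, the 3 genes without H3K27me3. They held 36 at *Mesp1*, 50 at *Mesp2*, 57 at *Pax3*, 61 at *Uncx*, 77 at *Foxc2*, 101 at *Foxc1* and 117 at *Tcf15*. The 3 genes without the mark thus had fewer CpGs than each of the 7 genes with it. Over all genes the median was 41.0, and for genes with H3K27me3 near a start in WT it was 67.0, with a lower quartile of 46.0. The longest H3K27me3 peaks were at *Pax3* and *Uncx*, with middling CpG counts, and *Tcf15*, with the most CpGs, had a peak of only 3708 bp in WT. Spearman's rho between CpG count and the longest H3K27me3 peak near the start was 0.66 in WT and 0.75 in Delta over the 10 genes. These genes share their libraries, and rho is given as a description. The 3 genes without H3K27me3 entered rho with a length of 0, so it partly restates presence and absence. No rho was computed over the 7 genes with the mark.

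In bins of CpG count chosen after the values were seen, H3K27me3 near a start was present in WT at 9.89% of all genes with 0 to 29 CpGs, 42.4% of those with 30 to 54 and 58.6% of those with 55 or more. H3K4me3 was present at 15.3%, 85.9% and 98.4% of the same genes. *Tbx6*, with 29 CpGs and H3K4me3, was among the minority of its bin for that mark, while *Mesp2*, with 50, and *Uncx*, with 61, were among the minority without it in theirs.

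**Figure D4:**
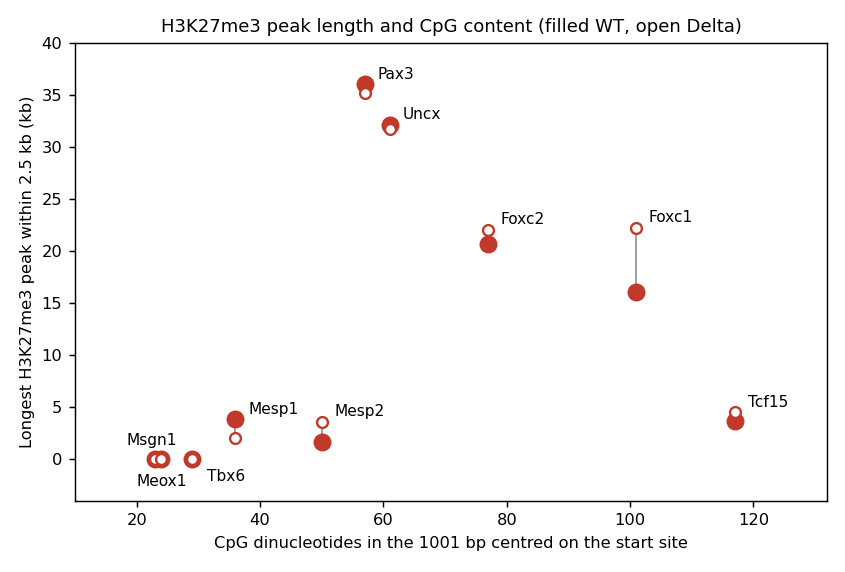
Longest H3K27me3 peak within 2500 bp of the start (y axis, kb) against the number of CpG dinucleotides in the 1001 bp centred on the start (x axis) for each of the 10 genes, filled for WT and open for Delta. *Msgn1*, *Meox1* and *Tbx6* lie at 0 on the left, *Pax3* and *Uncx* have the longest peaks at middling counts, and *Tcf15* has the highest count with a short peak.

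For sequence motifs, 4 short patterns were counted on both strands of the 300 bp from 250 bp before to 50 bp after each start. The bHLH motif CANNTG was found at 5 of the 10 genes (*Mesp1*, *Mesp2*, *Msgn1*, *Meox1* and *Foxc2*) and in 69.4% of all such promoters. GATA, the core of the motif of GATA factors, was found at 5 (*Tbx6*, *Mesp2*, *Msgn1*, *Meox1* and *Foxc2*) and in 54.3% of all promoters. The T-box core TCACAC was found at 0 of the 10 and in 13.1% of all promoters. CTG followed after 8 bases by GATA, which also counts as a GATA match, was found at 0 of the 10 and in 1.87% of all promoters. Matches are descriptions of these windows only.

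A stricter threshold removed most H2AK119ub calls, at these genes as at all genes. When a −log10 q of 3 or more was required, H2AK119ub remained at 1 gene in WT, *Mesp1*, and at 1 gene in Delta, *Pax3*, where 0.358% of all genes had a peak in WT and 0.215% in Delta. H3K27me3 remained at 7 genes in WT and 6 in Delta, against 25.1% and 24.7% of all genes. H3K4me3 remained at 4 genes in WT and 6 in Delta, against 59.7% and 58.8%. *Tbx6* and *Mesp1* then had H3K4me3 in Delta alone, as did 1.03% of all genes.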

How the data were processed

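The authors mixed sorted mouse cells with *Drosophila* S2 cells at 2:1 (mouse to fly) before ChIP. By the study's methods and the submitters' processing notes, reads were trimmed with Trim Galore and mapped with Bowtie to mm9 and dm3, duplicates were removed, and broad peaks were called per library with MACS2 2.0.10 against the input of the same genotype, at a broad cutoff of 0.05. The methods describe spike-in scaling of fragment coverage and give none for peak calling, so unscaled lists cannot measure a global change in a mark. For each peak, the lists deposited by the authors give a fold enrichment (a ratio), a −log10 p-value and a −log10 q-value. The score deposited by the authors and the 2 inputs, which had no peak list, were not used.

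Groups were taken from sample titles. Peaks (70826 in 8 lists) were overlapped by at least 1 bp with GENCODE M1 genes on NCBIM37 (mm9), with 1-based coordinates, in Python 3.11.15 with numpy 2.4.6, scipy 1.17.1 and pysam 0.24.0. Offsets are from the most upstream TSS in the direction of the gene. Covered length counts bases within 2500 bp of any TSS. The implied background of a peak was solved from its fold enrichment and Poisson p-value jointly. CpG counts were available for 22347 genes. Overlap code was tested on simulated data and checked against bedtools 2.31.1 in 8 lists, with a largest difference of 0 genes. With 1 library per group no test was made, and read depth, which peak lists do not hold, was not used. All 10 genes are named. Other somite genes are given as counts with up to 4 examples per mark that differ in presence, and cardiac and blood genes as counts. The genes and lists were chosen with earlier results of these data known. Alternatives were TSS distances of 1000 bp and 5000 bp, no gene body, a −log10 q or fold enrichment of 3 or more, an overlap of at least 500 bp, equal numbers of top peaks, and peaks up to 3000 bp apart joined.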

Additional observations from a re-analysis of the deposited data

How the results depend on the processing

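Values rest on single libraries and on peaks that passed the authors' threshold. No paired analysis was possible because each group had 1 library and no test was made. Of 136 counts of the 10 genes under the alternatives, 124 stayed within 1.5 times the main count. These 124 include all counts for H3K27ac, which were 0 under every setting. They also include all counts under the fold enrichment filter, which left every count as it was. The tally is therefore no measure of how stable the H2AK119ub counts were. The other 12 counts, for H2AK119ub unless stated, were as follows. At a −log10 q of 3 or more, 1 gene had a peak in WT and 1 in Delta, with 1 in WT alone and 1 in Delta alone, 1 gene had H3K27me3 in WT alone, 2 had H3K4me3 in Delta alone, and 1 gene had more cover in WT. With an overlap of at least 500 bp, 2 genes had a peak in WT alone and 1 in Delta alone. With equal numbers of top peaks, 1 gene (*Mesp2*) had a peak in Delta alone. With peaks up to 3000 bp apart joined, 3 genes had more cover in WT, and with 5000 bp on each side of the start, 2 had more in Delta. Differences in cover (Delta minus WT) changed sign for *Mesp1* H2AK119ub (-224 bp) and *Pax3* H2AK119ub (2331 bp) at a −log10 q of 3 or more, for *Foxc2* H2AK119ub with 5000 bp on each side (864 bp), and for *Tcf15* H3K4me3 with peaks joined (-581 bp). The filter on q removes peaks and joining fills gaps by construction. The remaining causes were not tested.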

Other observations

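Other genes of the paraxial and somite programme, 21 in a list chosen with earlier results known, were described by the same rule. H3K4me3 was present at 19 of the 21 genes in each genotype, and *Ripply1* and *Myf5* had neither H3K4me3 nor H3K27me3. H3K27me3 was present at 18 genes in WT and 19 in Delta, the difference being *Rspo3*, an activator of Wnt signalling, with a Delta peak of 1018 bp. H2AK119ub was present at 14 genes in WT and 11 in Delta, where the share of all genes was 10.8% in WT and 5.70% in Delta. Over all genes, 5.91% had H2AK119ub in WT alone and 0.832% in Delta alone. In WT alone it was found at *Lfng*, a modifier of Notch receptors, *Nrarp*, a feedback inhibitor of Notch, *Pcdh8*, a protocadherin of the somite boundary, and *Twist1*, a bHLH factor of mesoderm. In Delta alone it was found at 1 gene, *Hes7*, an oscillating repressor of the segmentation clock that is named beyond the rule for examples. H3K27ac was present at 1 of the 21 genes in each genotype, *Nrarp*.

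Among 10 cardiac genes, H2AK119ub was present at 9 in WT and 6 in Delta, H3K27me3 and H3K4me3 at all 10 in each genotype, and H3K27ac at 0 in WT and 3 in Delta. Among 10 blood genes, H3K27ac was present at 7 in WT and 1 in Delta, H3K4me3 at 10 and 8, H3K27me3 at 8 and 8, and H2AK119ub at 4 and 3. Over all genes, H2AK119ub was present at 10.8% in WT and 5.70% in Delta, and H3K27me3 at 36.7% and 34.6%. For H3K27ac these shares were 20.8% and 23.6%, and for H3K4me3 61.9% and 61.4%. Fewer H2AK119ub calls in Delta were thus seen over all genes too. The counts of these lists compare libraries, have no replicate check, and were not tested against the counts of the 10 paraxial and early mesoderm genes.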
